A study of Mus musculus and Homo sapiens with 42 samples.

Results

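Solute carriers are membrane proteins, named SLC with a family number, that move amino acids, sugars, nucleosides, vitamins, metals, inorganic and organic ions and lipids across the plasma membrane and the membranes of organelles. The set described here holds every protein-coding gene with a symbol that starts with SLC and a number and that is listed in the count tables of the human lines K562 and SNB19. It has 199 genes of the 29828 listed, in 45 families, out of 374 such genes in GENCODE v29, and the other 175 were not analysed here. Well-known carriers such as SLC2A1, SLC1A5, SLC7A5 and SLC16A1 are among those not listed. Ranks and class sums below therefore hold only among the listed genes. By the known or predicted substrate of the family, 33 genes were placed with amino acids, 31 with inorganic ions, 25 with the mitochondrial carriers of family SLC25, 23 with metals, 23 with organic ions and drugs, 14 with nucleotide sugars, 14 with sugars, 10 with vitamins and choline, 7 with monocarboxylates and related acids, 7 with nucleosides and nucleobases, 3 with lipids and 6 with other substrates. The remaining 3 carry the name without being carriers, namely SLC2A4RG, SLC4A1AP and SLC22A18AS.

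K562 is a line from a chronic myelogenous leukemia, and SNB19 is a glioblastoma line. Each carried an inducible short hairpin RNA against the chromatin remodeler CHD9 (shCHD9#1 or shCHD9#2) or against luciferase (shLuc), a sequence that human cells lack. All 12 cultures, the shLuc controls included, had received doxycycline at 1 ug/ml for 48 hours to switch the hairpin on. There were 2 libraries per hairpin and line, labelled experiments 1 and 2. The comparisons address which carrier genes respond when CHD9 is depleted. Each cell type is represented by 1 line and CHD9 was depleted rather than deleted.

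As background, most carriers use either a gradient of sodium, protons or another solute, or exchange 1 solute for another. Amino acid carriers of families SLC1, SLC7, SLC38 and SLC43 supply glutamine, leucine, cystine and cationic amino acids to growing cells, and SLC3A2 is the heavy chain that several SLC7 transporters need to reach the surface. SLC25 proteins exchange metabolites across the inner mitochondrial membrane, the ADP/ATP translocases among them. Erythroid cells rely on SLC25A37 (mitoferrin), which brings iron into mitochondria for heme synthesis, and on SLC4A1 (band 3), the chloride and bicarbonate exchanger of the red cell.

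The libraries held 8109941 to 9033846 counts in K562 and 9518169 to 10476231 in SNB19. CHD9 mRNA, in CPM (counts scaled for library size and composition), was 329 and 243 in the K562 shLuc libraries, 146 and 139 with shCHD9#1 and 150 and 152 with shCHD9#2. In SNB19 it was 635 and 649 with shLuc, 255 and 245 with shCHD9#1 and 213 and 336 with shCHD9#2. The K562 log2 fold changes were -1.01 ± 0.11 (SE, adjusted p = 1.33e-06) and -0.92 ± 0.11 (adjusted p = 6.26e-06), and those of SNB19 were -1.36 ± 0.17 (adjusted p = 3.13e-04) and -1.23 ± 0.17 (adjusted p = 9.71e-04). The log2 fold change was -0.77 for K562 shCHD9#1 without shLuc replicate 1, -0.96 without its own replicate 2, and -0.94 for SNB19 shCHD9#2 without its replicate 1, short of the fold threshold. Replicate libraries differed by 1.13 to 1.93 times the counting variance in 4 groups, but by 7.95 times in K562 shLuc and 17.8 times in SNB19 shCHD9#2. Each comparison was therefore also run without each of its libraries in turn. Leaving out a library mostly also moved the number of calls over all genes, so shifts in carrier counts are not by themselves particular to carriers. For single genes the outcome is given mostly where a call or a sign changed. Of 22 erythroid and myeloid marker genes, 11 were listed and summed to between 3953 and 4517 CPM in K562 and between 44.3 and 110 CPM in SNB19, where 5 of them were at 0. Of 24 glioblastoma and mesenchymal genes, 13 were listed and summed to 17000 to 21350 CPM in SNB19 and 3963 to 4377 CPM in K562. In bulk RNA, fewer cells with a transcript and less transcript per cell cannot be told apart.

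In the shLuc controls, carrier genes spanned from no counts to 485 CPM per kilobase of exonic sequence in K562 and 534 in SNB19. Levels between genes are given on this scale, from a scaling of the 4 control libraries together. The median carrier gene had 1.92 CPM per kilobase in K562 and 2.24 in SNB19, against 3.12 and 4.83 for the 9757 listed protein-coding genes. In 43 of the 199 genes no shLuc library of either line held more than 3 counts, 17 were at or under 3 counts in K562 alone, 11 in SNB19 alone, and 128 were above 3 counts in both.

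SLC25A5, an ADP/ATP translocase, had the highest level of the listed carrier genes in both lines, with 462 and 508 CPM per kilobase in K562 and 531 and 537 in SNB19. Some of its reads cannot be assigned with certainty, since 31.8% of its 31-base stretches also occur in other genes. In K562 it was followed by SLC3A2 at 133 and 146 CPM per kilobase, the glutamine transporter SLC38A2 at 99.9 and 78.1, and SLC25A37 at 76.8 and 73.4. The last did not differ beyond its spread from SLC25A23, a calcium-regulated carrier of ATP and phosphate in mitochondria, at 78.1 and 72.0. In SNB19 the second place was taken by SLC38A3, a sodium-coupled glutamine transporter known from astrocytes and liver, at 357 and 357 CPM per kilobase. SLC38A2 at 92.7 and 94.0 and the glucose transporter SLC2A12 at 94.4 and 92.1 followed and overlapped, ahead of the anion exchanger SLC4A2 at 88.0 and 86.4 and the phosphate transporter SLC20A1 at 84.7 and 84.5. The 10 highest genes of the set had 5 in common between the lines, SLC2A4RG among them, which is not a carrier. With coding length in place of exonic length, 7 of the 10 highest stayed among the 10 highest in each line, and SLC38A3 then stood first in SNB19.

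Classes differed in how many of their listed genes exceeded 1 CPM per kilobase. Of the 9757 listed protein-coding genes, 5556 did so in K562 and 6097 in SNB19. Mitochondrial carriers made up 37.5% of the summed level per kilobase of all carrier genes in K562 and 28.2% in SNB19, and amino acid carriers 17.6% and 21.9%. Only 13 of the 33 amino acid genes exceeded 1 CPM per kilobase in K562 and 16 in SNB19, against 20 and 21 of the 25 mitochondrial genes. Organic ion carriers, many of them known from kidney and liver, exceeded that level in 6 and 7 of 23 genes. Metal carriers did so in 16 and 15 of 23 genes and had a median of 13.2 CPM per kilobase in K562 and 7.81 in SNB19. The 7 listed monocarboxylate genes, which do not include SLC16A1, summed to 5.25 CPM per kilobase in K562 and 32.3 in SNB19. Of the latter, SLC16A3, the lactate exporter of glycolytic cells, had 23.8.

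**Figure D1:**
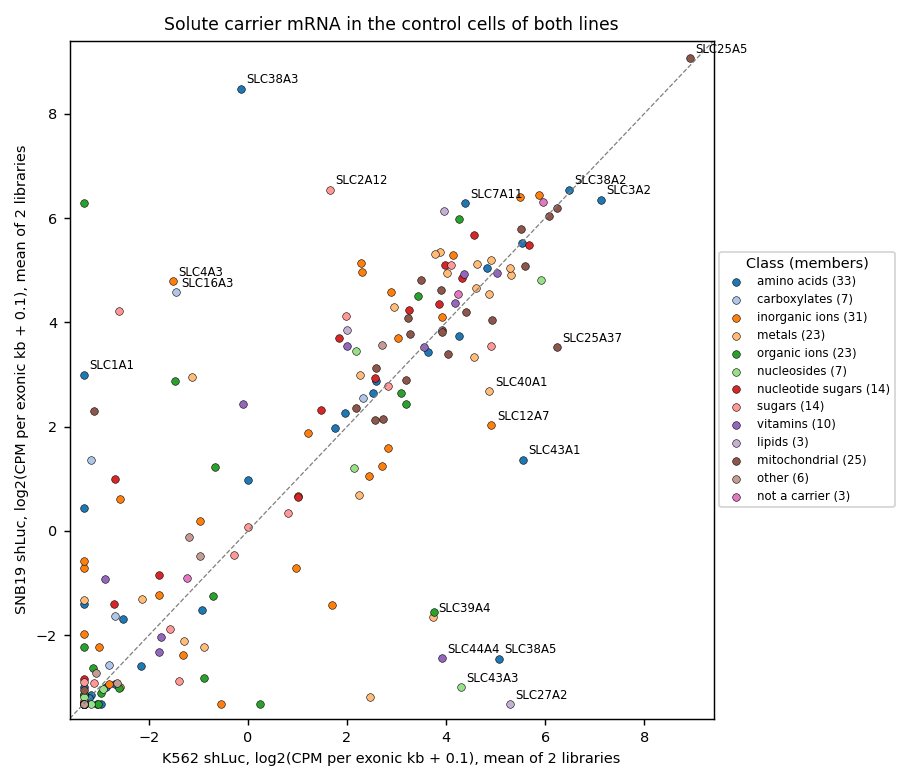
Each point is 1 of the 199 carrier genes, coloured by substrate class, with its mean level in the 2 shLuc libraries of K562 on the horizontal axis and of SNB19 on the vertical axis, both as log2(CPM per exonic kilobase + 0.1). SLC25A5 stands highest in both lines near the dashed line of equal level, SLC38A3 and SLC2A12 lie far above it, and SLC27A2, SLC43A3 and SLC38A5 far below it.

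CPM in this comparison come from the joint scaling of both lines and differ from those given per line. Between the shLuc controls, 24 of 137 carrier genes tested were higher in K562 and 44 were higher in SNB19 at an adjusted p under 0.05 and a log2 fold change beyond 1, the thresholds used throughout. Among all genes tested, 26.6% were higher in K562 and 28.5% higher in SNB19. SLC38A3 had the smallest p of the carrier genes, with 3.21 ± 0.91 CPM in K562 and 1417 ± 2.47 CPM in SNB19 (mean ± SD, n = 2), a 439-fold difference (log2 -8.78 ± 0.13 SE, adjusted p = 1.09e-10). SLC2A12 was 30.7-fold higher in SNB19 and SLC16A3 89.7-fold higher. SLC4A3, an anion exchanger of excitable tissues, was 110-fold higher in SNB19 (adjusted p = 5.36e-10). SLC7A11, the cystine and glutamate exchanger, was 3.74-fold higher in SNB19 (log2 -1.90 ± 0.09, adjusted p = 6.00e-08).

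Some carriers were seen in 1 line only. SLC1A1, a glutamate transporter, and SLC7A2, a carrier of cationic amino acids, were at 0 in both K562 shLuc libraries. Taking 3 counts per library as the limit, they were at least 99.3-fold and 31.2-fold higher in SNB19. In the other direction, SLC27A2, a fatty acid transporter and acyl-CoA synthetase, was at 0 in SNB19 and at least 328-fold higher in K562. SLC38A5, another glutamine transporter, was at least 403-fold higher in K562, and SLC43A3, a purine nucleobase transporter, at least 267-fold, although 27.5% of the sequence stretches of SLC43A3 are shared with other genes.

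Other genes higher in K562 were expressed in both lines. SLC43A1, a transporter of large neutral amino acids, was 18.8-fold higher (log2 4.23 ± 0.11, adjusted p = 1.25e-09), SLC25A37 6.604-fold (adjusted p = 1.95e-09) and the potassium and chloride cotransporter SLC12A7 7.59-fold (adjusted p = 8.87e-09). The iron exporter SLC40A1 was 4.66-fold higher (adjusted p = 2.98e-08). SLC4A1 had at most 29 counts in a K562 shLuc library and none in those of SNB19. Of the metal carriers tested, 6 of 18 were higher in K562 and 4 were higher in SNB19, near the shares of all genes (26.6% and 28.5%).

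CHD9 depletion in K562 was followed by changes of carrier genes in both directions. With shCHD9#1, 12 of the 128 carrier genes tested rose and 9 fell, 9.38% and 7.03% of those tested, against 11.9% and 6.99% of all 9171 genes tested. With shCHD9#2, 6 rose and 6 fell, 4.69% each, against 9.51% and 3.05% of all genes. The median log2 fold change of the carrier genes was 0.15 with shCHD9#1 and 0.076 with shCHD9#2, against 0.0062 and 0.0075 for all genes tested. Of the 71 carrier genes that were not tested, 21 had no counts in K562 and none exceeded 19 counts in a library. Without shLuc replicate 1 or 2, the counts with shCHD9#1 changed little, and more carrier genes rose with shCHD9#2. Over all genes, the number that rose with shCHD9#2 was larger without shLuc replicate 1 and smaller without shLuc replicate 2. Both hairpins are compared with the same 2 shLuc libraries, so their counts are not independent.

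The same 10 carrier genes of 128 passed the thresholds with both hairpins in K562, 5 of them higher and 5 lower, where 8.03% of all genes were higher and 2.4% lower with both. Of the 5 that rose, SLC44A5, a choline transporter-like protein, was at 6.09 and 5.49 CPM in shLuc, 15.6 and 18.04 with shCHD9#1 and 24.7 and 23.9 with shCHD9#2. All 4 depleted libraries lay above both controls, by log2 fold changes of 1.53 ± 0.16 (adjusted p = 9.68e-07) and 2.07 ± 0.15 (adjusted p = 3.05e-08). SLC16A3 went from 2.07 and 3.22 CPM to 6.87 and 7.07 with shCHD9#1 and 6.71 and 7.54 with shCHD9#2 (log2 1.40 ± 0.24, adjusted p = 1.43e-04, and 1.43 ± 0.24, adjusted p = 1.77e-04). SLC16A3 remained far below its SNB19 control level of 189 and 194 CPM.

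The other 3 genes that rose with both hairpins carry metals. SLC11A1, a proton-coupled metal transporter of phagosomes, was at 4.37 and 4.06 CPM in shLuc, 10.0 and 8.53 with shCHD9#1 and 12.9 and 13.1 with shCHD9#2. SLC41A2, a magnesium transporter, was at 2.41 and 1.67 CPM in shLuc, 10.5 and 9.14 with shCHD9#1 and 5.37 and 5.69 with shCHD9#2. SLC30A8, the zinc transporter of insulin granules, had only 4 counts in each shLuc library and 20 to 34 in the depleted ones, with log2 fold changes of 2.89 ± 0.40 (adjusted p = 1.58e-05) and 2.27 ± 0.43 (adjusted p = 5.98e-04). All 3 had low levels, at or below 13.1 CPM in every library.

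Of the 5 that fell with both hairpins, SLC27A6, a fatty acid transport protein, changed most. It went from 16.7 and 13.6 CPM in shLuc to 1.28 and 1.22 with shCHD9#1 and 2.80 and 2.51 with shCHD9#2, or 8.26% and 17.5% of the control mean. The log2 fold changes were -3.58 ± 0.24 (adjusted p = 7.07e-09) and -2.51 ± 0.20 (adjusted p = 8.35e-08). SLC30A10, a manganese exporter, fell from 38.6 and 30.5 CPM to 12.6 and 12.7 with shCHD9#1 and 12.1 and 14.3 with shCHD9#2 (log2 -1.45 ± 0.14, adjusted p = 4.67e-07, and -1.39 ± 0.14, adjusted p = 1.13e-06). SLC38A3, near its detection limit in this line, fell from 4.25 and 2.86 CPM to 1.16 and 1.34 and to 1.23 and 0.765 (adjusted p = 0.00165 and 7.48e-04).

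The last 2 belong to the organic ion family SLC22. SLC22A5, the carnitine transporter of the plasma membrane, was at 125 and 112 CPM in shLuc, 45.3 and 53.5 with shCHD9#1 and 63.7 and 54.5 with shCHD9#2. Its log2 fold changes were -1.27 ± 0.10 (adjusted p = 6.31e-08) and -1.01 ± 0.10 (adjusted p = 1.06e-06), and the latter became -0.93 without shLuc replicate 1 and -0.89 without shCHD9#2 replicate 2, short of the fold threshold. SLC22A23, an orphan member, was at 116 and 95.9 CPM in shLuc, 50.3 and 51.4 with shCHD9#1 and 48.2 and 50.8 with shCHD9#2. Without shLuc replicate 1 its log2 fold changes were -0.91 and -0.95, again short of the threshold, and 14.8% of its sequence stretches are shared with another gene, mostly PSMG4, which was not among the genes tested in K562.

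**Figure D2:**
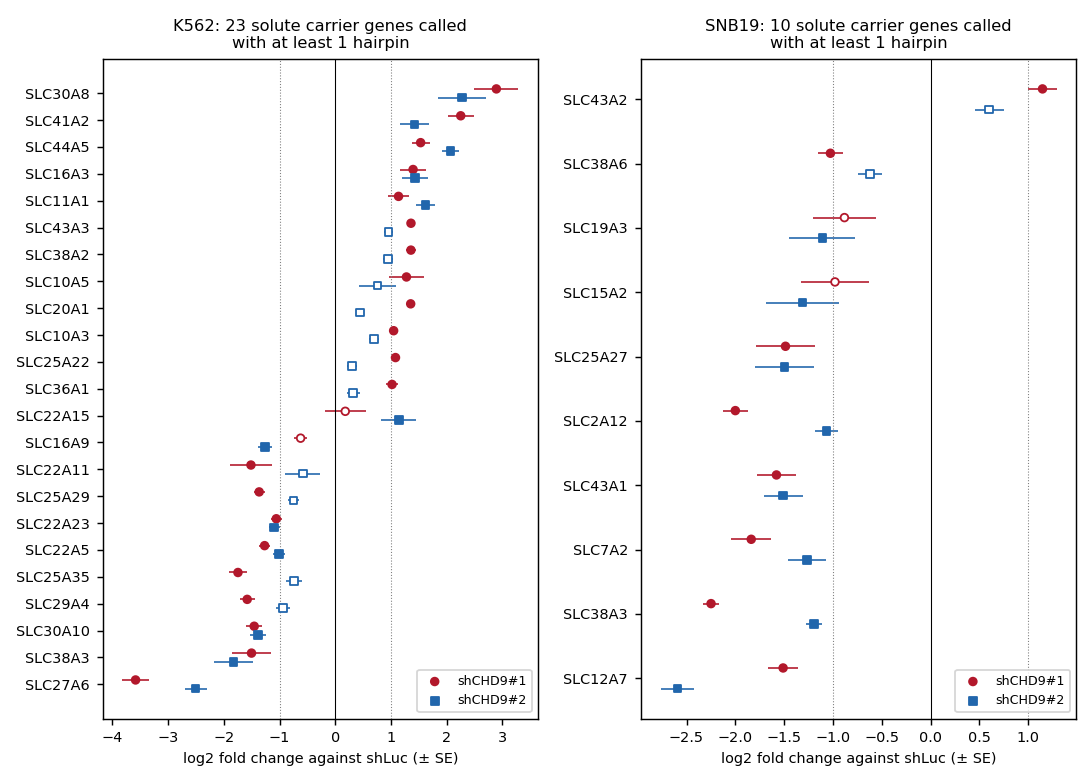
Log2 fold change against shLuc, with its standard error, of each carrier gene that passed the thresholds with at least 1 hairpin, 23 in K562 on the left and 10 in SNB19 on the right. Circles are shCHD9#1, squares shCHD9#2, filled where the gene passed, and dotted lines mark the fold threshold. In K562 the genes spread to both sides, while in SNB19 SLC43A2 alone passed on the higher side.

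A further 11 carrier genes passed with shCHD9#1 alone in K562, and 2 with shCHD9#2 alone. Among the 11 were abundant carriers of nutrients. SLC38A2 was at 729 and 575 CPM in shLuc, 1681 and 1665 with shCHD9#1 and 1276 and 1247 with shCHD9#2, so that its log2 fold change was 1.36 ± 0.09 (adjusted p = 6.35e-09) with the first and 0.95 ± 0.09 (adjusted p = 5.38e-07) with the second. The depleted libraries were all above the controls. Without shLuc replicate 1 the second value was 1.14 and passed the threshold.

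SLC20A1, which brings phosphate into cells, was at 282 and 275 CPM in shLuc, 727 and 697 with shCHD9#1 and 366 and 391 with shCHD9#2 (log2 1.35 ± 0.07, adjusted p = 4.65e-10, and 0.44 ± 0.07, adjusted p = 1.17e-04). SLC43A3 was at 95.4 and 102 CPM, then 264 and 243, and 190 and 194. The transporters SLC36A1 of lysosomal amino acids, SLC25A22 of mitochondrial glutamate, and the orphans SLC10A3 and SLC10A5 also rose with shCHD9#1, by log2 fold changes of 1.02 to 1.28. With shCHD9#2 these 4 had log2 fold changes between 0.30 and 0.76.

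The 4 that fell with shCHD9#1 alone were SLC25A29, which carries basic amino acids into mitochondria, the orphan mitochondrial carrier SLC25A35, the monoamine transporter SLC29A4 and the organic anion transporter SLC22A11. SLC25A35 was at 26.1 and 30.3 CPM in shLuc, 9.54 and 7.19 with shCHD9#1 and 15.2 and 18.5 with shCHD9#2, and 29.2% of its sequence stretches overlap the gene RANGRF. SLC25A29 was at 81.0 and 72.5 CPM, then 28.5 and 31.1, and 43.05 and 48.3 (log2 -1.37 ± 0.10, adjusted p = 2.38e-08, and -0.75 ± 0.10, adjusted p = 1.46e-05). With shCHD9#2 alone, SLC16A9, a carrier related to the lactate transporters, fell from 23.6 and 24.4 CPM to 9.84 and 10.2 (log2 -1.26 ± 0.13, adjusted p = 1.26e-06). SLC22A15 rose from 1.38 and 1.67 CPM to 3.02 and 3.72 (adjusted p = 0.00874), a call lost without shCHD9#2 replicate 2 (log2 0.99, adjusted p = 0.0917) and with the DESeq2 Wald test (adjusted p = 0.109).

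Several carriers of iron and heme synthesis stayed within the fold threshold in K562. SLC25A37 was at 692 and 668 CPM in shLuc, 421 and 404 with shCHD9#1 and 444 and 440.0 with shCHD9#2, a log2 fold change of -0.72 ± 0.07 (adjusted p = 2.67e-07) and -0.62 ± 0.07 (adjusted p = 2.38e-06) that stayed within the fold threshold. SLC40A1 was higher, at 145 and 136 CPM in shLuc, 186 and 186, and 206 and 193 (adjusted p = 2.87e-04 and 6.72e-05), also within it. For SLC25A38, which brings glycine into mitochondria for heme synthesis, the adjusted p was 0.061 and 0.186. SLC25A5 (log2 -0.034 and 0.070) and SLC3A2 (log2 -0.14 and -0.11) did not pass with either hairpin. The erythroid marker list summed to 4351 to 4517 CPM in shLuc, 4097 to 4270 with shCHD9#1 and 3953 to 3973 with shCHD9#2. In that list 1 of 11 genes fell and none rose with either hairpin. In the mesenchymal list 4 of 10 tested rose and 2 fell with shCHD9#1, and 2 rose and 2 fell with shCHD9#2. Of all genes tested in K562, 11.9% rose and 6.99% fell with shCHD9#1, and 9.51% rose and 3.05% fell with shCHD9#2. The part of the marker genes in the carrier results was not tested.

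With both hairpins as 1 group, so that the difference between them enters the spread, 8 of 128 carrier genes rose and 8 fell, against 9.37% and 3.5% of all genes. Without shLuc replicate 1 or 2, fewer carrier genes fell, and fewer of all genes passed in each direction. SLC38A2 (log2 1.17, adjusted p = 0.00115) and SLC43A3 (log2 1.17, adjusted p = 8.12e-04) were among those higher. SLC20A1 was at a log2 fold change of 0.97 (adjusted p = 0.0327), just short of the fold threshold. SLC38A3 lost its call without shLuc replicate 1 (log2 -1.34, adjusted p = 0.0655), as did SLC22A23 by its fold (log2 -0.93), and without shLuc replicate 2 the calls of SLC11A1 (adjusted p = 0.0501) and SLC41A2 (adjusted p = 0.0857) were lost.

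**Figure D3:**
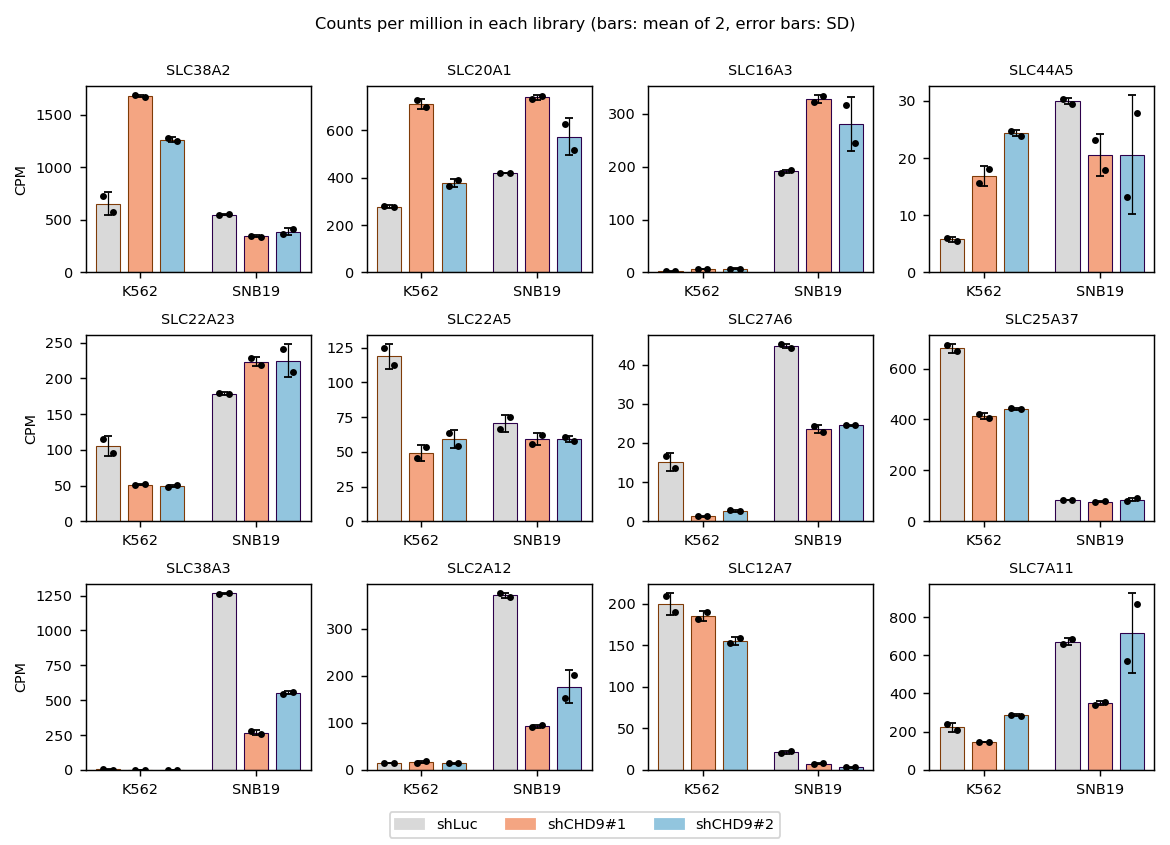
CPM of 12 carrier genes in each library, with bars for the mean of the 2 libraries of a hairpin, error bars for the SD and points for the libraries, K562 on the left of each panel and SNB19 on the right, each line scaled on its own. SLC38A2 rises above its shLuc level in K562 and lies below it in SNB19, SLC38A3 falls from 1261 and 1270 CPM in SNB19, and the 2 SNB19 shCHD9#2 libraries differ for SLC7A11 and SLC44A5.

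In SNB19 the carrier genes that passed were nearly all lower. With shCHD9#1, 1 of 130 carrier genes tested rose and 7 fell, or 0.769% and 5.38%, against 2.36% and 3.65% of all 8758 genes. With shCHD9#2, none rose and 8 fell, 6.15%, against 1.42% and 2.59% of all genes. For the count of 0, edgeR gave 18 carrier genes higher at an unadjusted p under 0.05, and DESeq2 also called none. Without shCHD9#2 replicate 1, fewer carrier genes fell with that hairpin, while the number over all genes changed little. Without its replicate 2, more carrier genes and more of all genes fell. The erythroid and myeloid marker list summed to 44.3 to 45.7 CPM with shLuc, 108 to 110 with shCHD9#1, where ANK1 rose, and 57.4 to 61.7 with shCHD9#2. The mesenchymal list summed to 17000 to 17150 CPM, then 17670 to 17750, and 20480 to 21350. The part of these genes in the carrier results was not tested. Of the 69 carrier genes not tested, 12 had no counts in SNB19 and none exceeded 11 counts in a library.

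The same 6 genes of 130 passed with both hairpins in SNB19, all of them lower, where 0.879% of all genes were higher and 1.52% lower with both, and both comparisons used the same 2 shLuc libraries. SLC38A3 was the second highest per exonic kilobase of the listed carrier genes in the control cells. It was at 1261 and 1270 CPM in shLuc, 278 and 254 with shCHD9#1 and 545 and 560 with shCHD9#2. It was left at 21.0% and 43.6% of its control mean, by log2 fold changes of -2.25 ± 0.09 (adjusted p = 4.28e-07) and -1.20 ± 0.08 (adjusted p = 2.29e-05). SLC38A3 was also the 1 carrier gene that passed in both lines, though from 3.56 CPM in K562 and 1265 CPM in SNB19.

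SLC2A12 was at 376 and 368 CPM in shLuc, 91.0 and 95.04 with shCHD9#1 and 153 and 202 with shCHD9#2 (log2 -2.0002 ± 0.13, adjusted p = 7.57e-06, and -1.07 ± 0.12, adjusted p = 3.60e-04). Without shCHD9#2 replicate 1 the latter was -0.89, short of the fold threshold. Of its sequence stretches, 38.4% are shared with the overlapping gene TBPL1, whose mean fell from 55.3 CPM to 35.8 with shCHD9#1 (log2 -0.63, adjusted p = 0.00169) and was 45.1 with shCHD9#2 (log2 -0.30, adjusted p = 0.0699). SLC12A7 went from 19.9 and 22.4 CPM to 6.95 and 7.90 and to 3.09 and 3.91, so that shCHD9#2 left 16.5% (log2 -1.51 ± 0.15, adjusted p = 9.03e-05, and -2.59 ± 0.17, adjusted p = 1.87e-05).

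The other 3 had lower levels. SLC7A2 was at 8.16 and 9.47 CPM in shLuc, 2.61 and 2.29 with shCHD9#1 and 3.29 and 4.01 with shCHD9#2 (adjusted p = 1.90e-04 and 0.00179). SLC43A1 was at 7.40 and 8.23 CPM, then 2.51 and 2.70, and 2.99 and 2.47 (adjusted p = 3.94e-04 and 8.44e-04). SLC25A27, a mitochondrial uncoupling protein known from brain, was at 15.9 and 12.3 CPM, then 5.51 and 4.58, and 2.89 and 7.197, with both shCHD9#2 libraries below the controls but apart from each other. Its call was lost with shCHD9#1 without replicate 2 of that hairpin (adjusted p = 0.0537) and with shCHD9#2 without replicate 1 of that hairpin (log2 -0.99).

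Amino acid carriers, 18 of the genes tested, gave 5 of the 8 genes that passed with shCHD9#1 and 3 of the 8 with shCHD9#2. Of all genes tested, 6.02% and 4.01% passed in either direction, and the class was not tested as a list. The orphan SLC38A6 fell with shCHD9#1 from 27.9 and 28.4 CPM to 14.3 and 13.3 (log2 -1.03 ± 0.12, adjusted p = 2.92e-04), which became -0.97 without shCHD9#1 replicate 2. The leucine transporter SLC43A2 was the single gene that rose, from 18.03 and 17.3 CPM to 40.9 and 37.3 (log2 1.15 ± 0.14, adjusted p = 3.70e-04), with 30.4 and 23.03 CPM under shCHD9#2. With shCHD9#2 alone, the peptide transporter SLC15A2 (3.42 and 5.76 to 1.098 and 2.57 CPM, adjusted p = 0.0368) and the thiamine transporter SLC19A3 (2.94 and 2.98 to 1.70 and 1.03 CPM, adjusted p = 0.0479) passed narrowly.

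SLC38A2 and SLC7A11 stayed within the fold threshold in SNB19. SLC38A2 was at 545 and 556 CPM in shLuc, 350 and 339 with shCHD9#1 and 362 and 414 with shCHD9#2, all 4 below the controls (log2 -0.68 ± 0.09, adjusted p = 5.19e-04, and -0.50 ± 0.09, adjusted p = 0.00441). Without shLuc replicate 1 or 2 the second adjusted p was 0.0532 and 0.0692. SLC7A11 was at 659 and 683 CPM in shLuc, 341 and 358 with shCHD9#1 and 568 and 866 with shCHD9#2, so that the last pair fell on either side of the controls (log2 -0.94 ± 0.16, adjusted p = 0.0019, and 0.097 ± 0.16, adjusted p = 0.692). SLC20A1 was above the controls in all 4 libraries, with 733, 746, 628 and 519 CPM against 421 and 422 (adjusted p = 2.92e-04 and 0.0127). SLC16A3 was higher as well, from 189 and 194 CPM to 323 and 333 and to 317 and 244 (adjusted p = 0.00105 and 0.0103).

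With both hairpins of SNB19 as 1 group, none of 130 carrier genes rose and 7 fell, against 1.54% and 2.43% of all genes. edgeR gave 18 higher at an unadjusted p under 0.05 and DESeq2 called none. Without shLuc replicate 1 or 2, fewer carrier genes fell, and fewer of all genes did. Without shCHD9#2 replicate 2, 8 carrier genes fell and 2 rose, beside 307 and 163 of all 8677 genes tested. The calls of SLC38A3 and SLC2A12 in this comparison were lost without either shLuc library, with adjusted p of 0.051 and 0.0531 for SLC38A3 and of 0.0623 and 0.0565 for SLC2A12, while SLC25A27 was lost without shLuc replicate 1 (adjusted p = 0.101).

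The hairpins were compared directly, without the controls. In K562, 2 carrier genes were higher and 2 lower with shCHD9#1 than with shCHD9#2, against 2.41% and 1.61% of all genes. The lower ones were SLC25A35 (log2 -1.01 ± 0.17, adjusted p = 5.07e-04) and SLC27A6 (log2 -1.08 ± 0.34, adjusted p = 0.0276), and the higher ones SLC4A3 (log2 1.71 ± 0.38, adjusted p = 0.00351) and SLC23A3 (log2 1.01 ± 0.34, adjusted p = 0.0341), which is an orphan relative of the vitamin C transporters. SLC4A3 was at 3.14 and 2.32 CPM with shCHD9#1 and 0.783 and 0.875 with shCHD9#2. None of the 4 calls held throughout. DESeq2 put SLC27A6 at an adjusted p of 0.0711 and SLC25A35 just within the fold threshold (log2 -0.9985), and gave no adjusted p for SLC4A3 and SLC23A3. Each call was lost without at least 2 of the 4 depleted libraries. The log2 difference of SLC25A35 was -0.82 and -0.86 without replicate 2 of either hairpin, and the adjusted p went up to 0.137 for SLC27A6, 0.0755 for SLC4A3 and 0.281 for SLC23A3. SLC20A1 was higher with shCHD9#1 by a log2 difference of 0.91 ± 0.07 (adjusted p = 3.24e-07), SLC38A2 by 0.41 ± 0.09 (adjusted p = 0.0028), and SLC44A5 was lower by 0.53 (log2 -0.53 ± 0.12, adjusted p = 0.00453), all within the fold threshold.

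In SNB19, 1 carrier gene was higher and 2 were lower with shCHD9#1 than with shCHD9#2, against 0.856% and 0.708% of all genes. SLC38A3 was lower (log2 -1.05 ± 0.08, adjusted p = 9.28e-05), with 278 and 254 CPM against 545 and 560, though its log2 difference was -0.99 without shCHD9#1 replicate 2. SLC7A11 was lower (log2 -1.04 ± 0.16, adjusted p = 0.00321), but by -0.70 without shCHD9#2 replicate 2 and with an adjusted p of 0.0576 without shCHD9#1 replicate 1. SLC12A7 was higher (log2 1.08 ± 0.20, adjusted p = 0.0101), a call lost without either shCHD9#1 library (adjusted p = 0.0581 and 0.111) and, by its fold of 0.92, without shCHD9#2 replicate 1.

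Whether the lines responded differently was tested as an interaction in 1 fit of all 12 libraries, in which the mean response to both hairpins in SNB19 was subtracted from that in K562. Of 144 carrier genes tested, 10 had a higher and 5 a lower response in K562, against 7.34% and 2.62% of all genes. In 13 of these 15 genes at least 1 library of each line held more than 10 counts. The other 2, SLC30A8 and SLC7A2, had at most 2 counts in SNB19 and 3 in K562, respectively, so that their difference rests on 1 line.

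SLC38A2 had the smallest p. Its log2 response was 1.16 ± 0.09 in K562 and -0.58 ± 0.08 in SNB19, a difference of 1.74 ± 0.12 (adjusted p = 1.83e-10), and the difference lay between 1.57 and 1.92 over the alternatives tried. The related glutamine transporter SLC38A3 responded alike in size, with -1.66 ± 0.27 in K562 and -1.71 ± 0.07 in SNB19. The difference of 0.049 ± 0.39 had an adjusted p near 1 and a wide error, which is itself imprecise for a difference this near 0. SLC12A7 (difference 1.81 ± 0.15, adjusted p = 4.37e-09), SLC2A12 (1.56 ± 0.16, adjusted p = 9.60e-08) and SLC43A1 (1.65 ± 0.18, adjusted p = 3.17e-07) fell in SNB19, while their K562 responses were -0.23, 0.042 and 0.12. SLC12A7 held 152 to 210 CPM in the K562 libraries, and SLC43A1 175 to 202 CPM.

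In the other direction, SLC22A23 had a log2 response of -1.07 in K562 and 0.34 in SNB19 (adjusted p = 1.16e-08), SLC16A9 of -0.94 and 0.70 (adjusted p = 2.38e-08), and SLC25A29 of -1.05 and 0.034 (adjusted p = 3.18e-07). SLC27A6 was lower in both lines, by -3.04 and -0.88 (adjusted p = 2.80e-08). In SNB19 SLC27A6 was at 45.2 and 44.4 CPM in shLuc and between 22.9 and 24.5 CPM in the 4 depleted libraries. SLC20A1 had responses of 0.90 and 0.64, and the difference of 0.26 ± 0.11 did not pass (adjusted p = 0.0944).

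**Figure D4:**
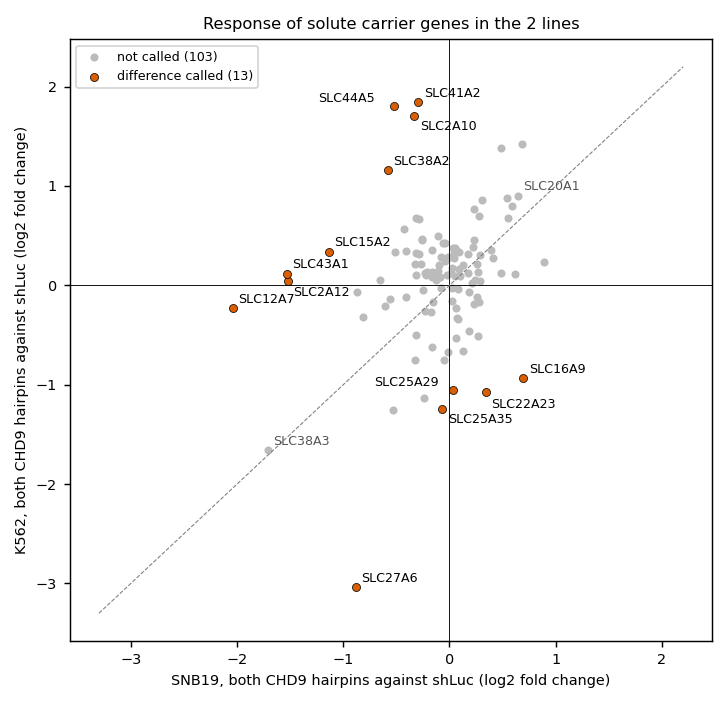
Log2 response to both CHD9 hairpins in SNB19 on the horizontal axis and in K562 on the vertical axis for the 116 carrier genes with more than 10 counts in a library of each line, with the 13 whose difference passed the thresholds in orange. SLC38A2 lies at 1.16 in K562 and -0.58 in SNB19, and SLC38A3 lies near the dashed line of equal response.

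By substrate class, the genes that passed were spread over 9 of the 13 classes in K562 with shCHD9#1. Of the organic ion carriers 2 were higher and 3 lower of 10 tested, and of the metal carriers 3 were higher and 1 lower of 19, beside the 11.9% higher and 6.99% lower of all genes. None of the 10 genes placed with nucleotide sugars and none of the 10 sugar transporters tested in K562 passed with either hairpin. Of all genes, 11.9% were called higher and 6.99% lower with shCHD9#1, and 9.51% and 3.05% with shCHD9#2. With so few genes in a class, a count of 0 is not set apart from these shares. Their log2 fold changes ranged from -0.39 to 0.86 and from -0.82 to 0.73. Of 20 mitochondrial carriers tested, 1 rose and 2 fell with shCHD9#1 and none passed with shCHD9#2.

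In SNB19, amino acid carriers had a median log2 fold change of -0.43 with shCHD9#1 and -0.079 with shCHD9#2, with 13 and 12 of 18 below 0, beside -0.0038 and 6.6e-05 over all genes. None of the 17 metal carriers passed with either hairpin, with values from -0.46 to 0.75. Nor did any of the 11 genes placed with nucleotide sugars. The 4 monocarboxylate genes had medians of 0.69 and 0.42 and none passed. These medians describe the libraries and were not tested as lists. Of all genes tested in SNB19, 2.36% were called higher and 3.65% lower with shCHD9#1, and 1.42% and 2.59% with shCHD9#2. In classes of this size, a count of 0 is not set apart from these shares.

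**Figure D5:**
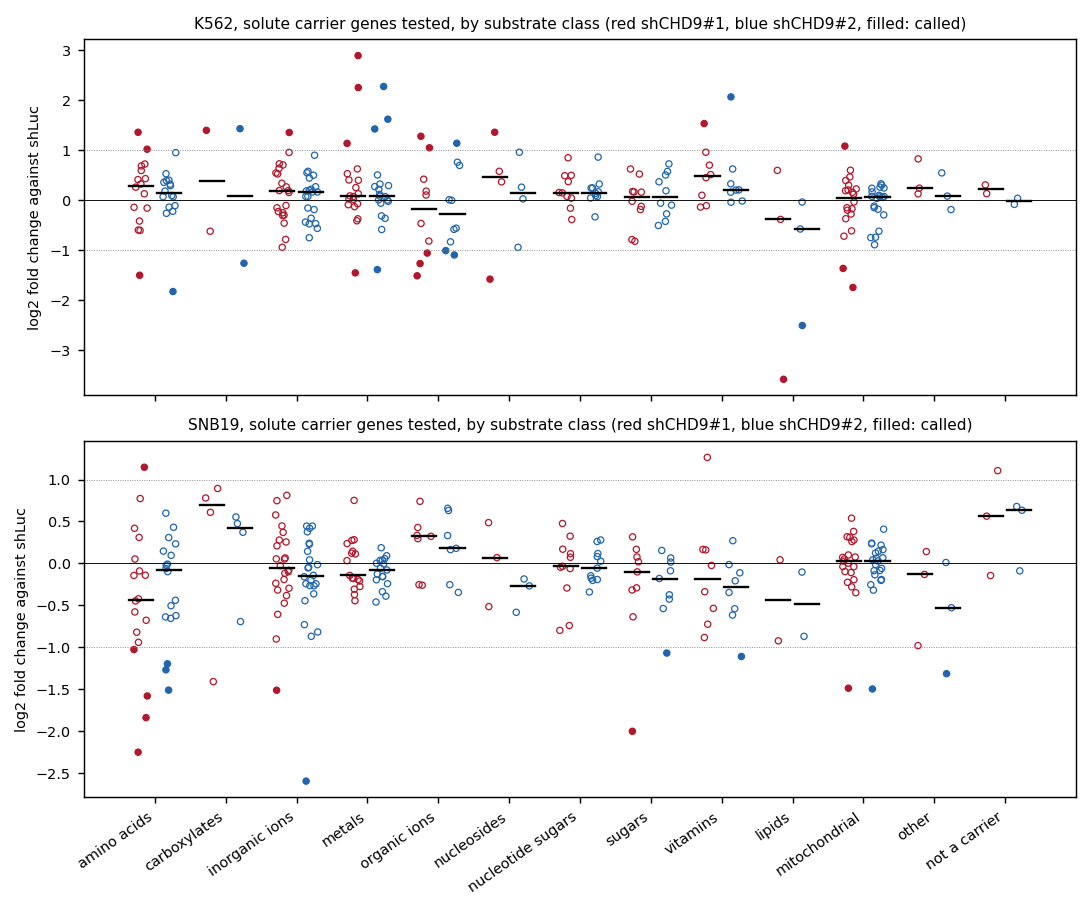
Log2 fold change against shLuc of every carrier gene tested, 128 in K562 above and 130 in SNB19 below, grouped by substrate class, with shCHD9#1 in red and shCHD9#2 in blue, filled points for genes that passed the thresholds and a black line at the median of the class. In K562 filled points lie on both sides of 0, and in SNB19 they lie below 0 except for SLC43A2.

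Transporters outside the SLC set were counted beside the same shares of all genes. Of 29 ABC transporters, SLCO transporters, P-type ATPases and aquaporins tested in K562, 5 rose and 3 fell with shCHD9#1 (11.9% and 6.99% of all genes) and 2 rose and 3 fell with shCHD9#2 (9.51% and 3.05%). Of 32 tested in SNB19, 3 rose and 1 fell with shCHD9#1 (2.36% and 3.65% of all genes), and 2 rose and 2 fell with shCHD9#2 (1.42% and 2.59%). None of the 5 accessory genes of carriers tested in K562 and none of the 4 in SNB19 passed with either hairpin. Of the genes of the amino acid response driven by the factor ATF4, none of 10 passed in K562 with either hairpin and 1 of 11 fell with shCHD9#1 in SNB19. Within the fold threshold in K562, TRIB3 had log2 fold changes of 0.43 (adjusted p = 1.63e-04) and 0.59 (adjusted p = 1.33e-05), and CTH of 0.30 (adjusted p = 0.00341) and 0.81 (adjusted p = 5.17e-07). Other genes of the amino acid response were lower with shCHD9#2 in K562, such as PSAT1 (log2 -0.32, adjusted p = 0.00115) and STC2 (log2 -0.34, adjusted p = 0.00311). These genes were named after their values were seen. Of the hypoxia and glycolysis genes, 1 of 9 fell with shCHD9#1 in K562 and 1 of 12 fell with shCHD9#1 in SNB19.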

How the data were processed

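Total RNA of 12 human libraries (TruSeq, HiSeq2000) was used. The authors aligned reads to hg37 with TopHat, counted them per Ensembl gene with HTSeq 0.5.3 and deposited the raw counts without normalization. Whether strand was used in counting is not given in the sources used here, so overlapping genes may share reads. No column belonged to a sample outside the list. Tables of the mouse samples were not used.

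Counts were analysed in R 4.3.3 with edgeR 4.0.16 (TMM scaling, filterByExpr, quasi-likelihood F-test), and DESeq2 1.42.0 as an alternative. Each line was fitted on its own with 3 groups, the controls of both lines in 1 fit, and the interaction in 1 fit of 12 libraries. Benjamini-Hochberg adjustment ran over every gene in a fit, and calls needed both an adjusted p under 0.05 and a log2 fold change beyond 1. Fold changes carry a prior count of 0.125. Standard errors were back-calculated as the absolute log2 fold change over the square root of the F statistic, which is imprecise for changes near 0. For a group whose libraries all held at most 3 counts, folds are lower bounds computed at 3 counts in each library. Groups came from the sample titles. Whether libraries of 1 experiment number deviate together was checked by correlating residuals, which gave -0.0244 to 0.0297, so no pairing was used. Whether replicates were separate cultures is not stated, and p-values measure the spread between these libraries, which may be technical. Scripts were tested on simulated data.

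GENCODE v29 (GRCh38) gave names for 26967 of 29828 listed genes, gene types and exonic and coding lengths. The build differs from hg37, so no coordinates are given. The tables list 48.9% of its protein-coding genes. Sequence shared between genes was measured as the share of a gene's 31-base stretches that occur in other transcripts.

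The members, the substrate classes and the lists (markers of both lines, other transporters, accessory genes, amino acid response, hypoxia and glycolysis) were chosen with earlier results of these data known. Named are the 3 highest members of each class, the 6 members with the smallest p in each direction per comparison and those called with both hairpins of a line, the 4 with the smallest p between hairpins or lines, and a set of carriers of general interest. Not every gene under the rule is described. All members called with a hairpin are named, and those beyond the rule were chosen after their values were seen. Alternatives tried were DESeq2's test, its size factors, no count filter, a mean of at least 10 counts, all 12 libraries in 1 fit, the experiment number as a block, coding length, and leaving out each library in turn, after which a hairpin or control with 1 library is assumed to vary like the other groups of the fit. The values of 1 member are not reported here.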

Additional observations from a re-analysis of the deposited data

Results flagged for a closer look

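The response to CHD9 depletion differed between K562 and SNB19, by the interaction test of edgeR, for 13 carrier genes with more than 10 counts in a library of each line. The differences, K562 minus SNB19 on the log2 scale, were 1.74 for SLC38A2, 1.81 for SLC12A7, 1.56 for SLC2A12, 1.65 for SLC43A1, 2.14 for SLC41A2, 2.33 for SLC44A5, 2.04 for SLC2A10 and 1.47 for SLC15A2. They were -1.41 for SLC22A23, -1.63 for SLC16A9, -2.16 for SLC27A6, -1.09 for SLC25A29 and -1.17 for SLC25A35. The adjusted p ran from 1.83e-10 for SLC38A2 to 0.00986 for SLC15A2. SLC2A10, a sugar transporter, had at most 19 counts in a K562 library, and SLC15A2 at most 38 in K562 and 56 in SNB19. SLC38A2, SLC22A23 and SLC16A9 were the ones whose log2 responses lay beyond 0.3 on opposite sides of 0, together with SLC44A5, SLC15A2 and SLC2A10. Among the 21 genes of K562 and 9 of SNB19 examined, CHD9 included, no depleted library stood apart from the other 3 by Dixon's criterion. These 4 libraries hold both hairpins, so a difference between hairpins widens their range. A replicate that deviates can then be missed.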

How the results depend on the processing

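The counts of carrier genes that passed kept within 1.5 times of their value in most alternatives. The exceptions were shCHD9#1 against shCHD9#2 in K562, with 0 higher and 0 lower under DESeq2 and 1 lower with DESeq2's size factors or without a count filter, SNB19 shCHD9#1, with 3 higher without a filter and 2 in 1 fit of all 12 libraries, and both hairpins of SNB19, with 1 higher without a filter. With the experiment number as a block the counts were 12 and 9 (K562 shCHD9#1), 6 and 6 (K562 shCHD9#2), 7 and 8 (both in K562), 1 and 7 (SNB19 shCHD9#1) and 0 and 8 (SNB19 shCHD9#2), higher and lower, and the numbers do not pair the libraries.

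Leaving out 1 library gave, for K562, 12 to 13 higher and 8 to 10 lower with shCHD9#1, 5 to 9 and 5 to 7 with shCHD9#2, 5 to 9 and 4 to 9 with both, and 0 to 3 and 0 to 2 between hairpins. For SNB19 it gave 1 to 3 and 5 to 9 with shCHD9#1, 0 and 5 to 11 with shCHD9#2, 0 to 2 and 3 to 8 with both, and 0 to 2 and 1 to 3 between hairpins. Between the control lines it gave 23 to 26 and 43 to 47, and for the interaction 9 to 12 and 5. The count of 3 higher with SNB19 shCHD9#1 arose without either shCHD9#2 library, and 2 without shLuc replicate 1. Between hairpins, K562 gave 0 higher without shCHD9#1 replicate 1 or shCHD9#2 replicate 1 and 0 lower without replicate 2 of either hairpin, and SNB19 gave 0 higher without either shCHD9#1 library and 2 without shCHD9#2 replicate 2.

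Signs turned only for values that had not passed. Leaving out 1 library, the log2 values ran as follows where a sign turned. In K562, SLC39A8 with shCHD9#1 reached -2.8e-06 and -0.0029, SLC25A5 lay between -0.11 and 0.042 with shCHD9#1 and between -0.0020 and 0.14 with shCHD9#2, and with shCHD9#2 SLC4A1 lay between -0.64 and 0.15 and SLC19A1 between -0.11 and 0.024. Between hairpins in K562, SLC16A3 lay between -0.11 and 0.054 and SLC30A10 between -0.18 and 0.063. In SNB19, SLC19A1 with shCHD9#1 lay between -0.12 and 0.058, with 0.0054 without shLuc replicate 1 and 0.0058 without a count filter. With shCHD9#2 in SNB19, SLC25A5 lay between -0.085 and 0.31, SLC25A37 between -0.038 and 0.12, and SLC7A11 between -0.23 (adjusted p = 1.30e-07 without shCHD9#2 replicate 2) and 0.36. Between hairpins in SNB19, SLC43A1 lay between -0.20 and 0.072 and SLC25A27 between -0.51 and 0.80, with -0.14 without shCHD9#1 replicate 1, -0.00019 under DESeq2 and -0.0076 without a count filter. The cause was not tested. Without a count filter, 14 and 8 of 178 carrier genes were higher in K562 with shCHD9#1 and shCHD9#2, beside 1482 and 1078 of all 22838 genes. Untested genes had at most 19 counts in a library, which limits the precision of their values.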
